A study of Homo sapiens with 2 samples.

Results

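The genes described are 10 that interferon is known to induce, 5 of the tripartite motif family (TRIM5, TRIM14, TRIM21, TRIM22 and TRIM25) and 5 of the ADP-ribosylation system (PARP9, PARP10, PARP12, PARP14 and the PARP9 partner DTX3L). They were taken by name, and all 21 probe sets that name one of them were used, each naming that gene alone. They are 10 of the 18392 genes measured. The list was chosen by name with the differences in log2 signal between these arrays already known, so the members' values are a description and carry no test.

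The study asked how the phenothiazine drug fluphenazine, a dopamine receptor blocker used as an antipsychotic, acts on castration-resistant prostate cancer cells. RNA came from PC3, an established human line from a bone metastasis of a prostate cancer, kept in medium with fetal bovine serum and given either the solvent DMSO or 10 µM fluphenazine. Each treatment had 1 array, so no value has a replicate error and no p-value was computed. How long the cells were treated is not stated in the labels, and these name no interferon treatment, so the genes were read at whatever level the cells kept in culture.

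Interferons bind receptors on the cell surface whose kinases activate STAT proteins. A complex of STATs with IRF9 then binds the interferon-stimulated response element (ISRE), a short promoter sequence, and switches on antiviral genes. Many TRIM proteins are ubiquitin ligases that mark viral or signalling proteins, and PARP enzymes attach ADP-ribose to proteins or nucleic acids. PARP9 and DTX3L work as a pair, the first a PARP-family protein and the second a ubiquitin ligase.

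The promoter windows are shown first because 7 of the 8 genes shown hold letters of the ISRE near the start of transcription. The windows are those of RefSeq on GRCh38.p14, from 250 bases before to 50 after each start. TRIM22 and PARP10 are not shown and are not among these 8. The motif searched was GAAA, any 2 bases and GAAA again, which reads TTTC, any 2 bases and TTTC from the other strand. It was present in 3.57% of all 35116 such windows. Each sequence below is on the gene's strand, 5′ to 3′, from 90 bases before the start to 10 after it, with the ISRE match in capitals. For TRIM21 the 30 bases that hold its pair of overlapping matches, after the start, are given instead.
TRIM5, chr11:5685065-5685164, minus strand: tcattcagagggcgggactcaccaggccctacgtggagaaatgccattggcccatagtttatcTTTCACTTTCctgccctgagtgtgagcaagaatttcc
TRIM14, chr9:98119213-98119312, minus strand: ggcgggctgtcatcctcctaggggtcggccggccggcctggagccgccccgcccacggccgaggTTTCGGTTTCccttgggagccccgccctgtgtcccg
TRIM21, chr11:4393664-4393693, minus strand: tctgagcgGAAACTGAAAGTGAAAtaggga
TRIM25, chr17:56914040-56914139, minus strand: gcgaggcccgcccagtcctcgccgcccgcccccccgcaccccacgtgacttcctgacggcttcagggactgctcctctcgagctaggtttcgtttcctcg
PARP9, start 2 of 2, chr3:122564291-122564390, minus strand: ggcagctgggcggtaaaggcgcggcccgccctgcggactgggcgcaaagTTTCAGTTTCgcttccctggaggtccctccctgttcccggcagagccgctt
PARP12, chr7:140062942-140063041, minus strand: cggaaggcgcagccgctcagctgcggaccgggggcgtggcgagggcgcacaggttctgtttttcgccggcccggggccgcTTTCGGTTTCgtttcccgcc
PARP14, chr3:122680749-122680848, plus strand: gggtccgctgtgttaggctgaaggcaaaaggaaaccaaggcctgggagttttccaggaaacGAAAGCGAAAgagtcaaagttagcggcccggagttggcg
DTX3L, chr3:122564248-122564347, plus strand: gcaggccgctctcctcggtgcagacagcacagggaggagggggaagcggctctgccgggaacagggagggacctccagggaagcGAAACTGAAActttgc

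PARP9 and DTX3L are neighbours on chromosome 3 and are read in opposite directions. Their ISRE matches are the same 10 bases, chr3:122564332-122564341, which lie 41 to 32 bases before the PARP9 start and run from 6 bases before to 4 bases after the DTX3L start. The other PARP9 window had no match. In TRIM5, TRIM14, PARP12 and PARP14 the match began 27, 26, 10 and 29 bases before the start, respectively. PARP14 also held TTCNNNGAA, the letters of the gamma-activated site (GAS) to which STAT dimers bind, 40 bases before its start, a motif found in 7.66% of all windows. A match describes letters only and does not show that a factor binds there.

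**Figure D1:**
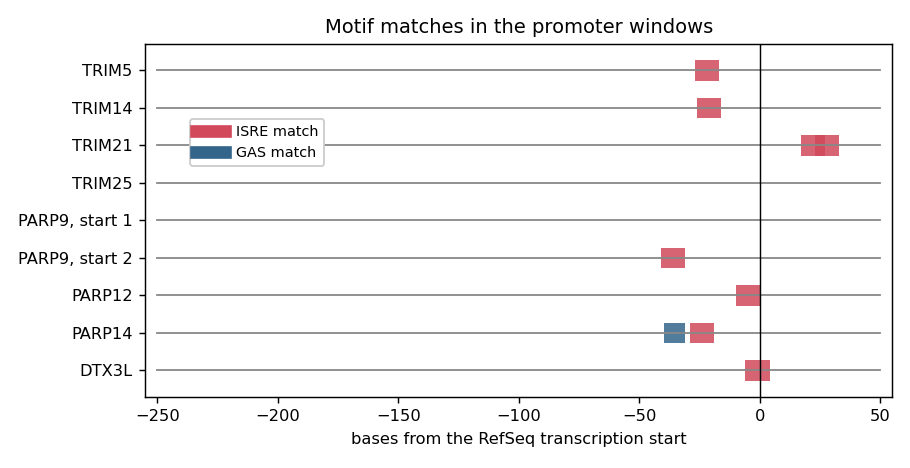
Each line is the RefSeq promoter window of a gene, from 250 bases before to 50 bases after the transcription start (x axis, bases), with boxes for ISRE (red) and GAS (blue) matches. The ISRE matches sit between 41 bases before and 33 bases after the start, and TRIM25 and the other PARP9 start have none.

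Values are log2 signals, so a difference of 1 is a 2-fold change, and each difference is the fluphenazine array minus the DMSO array. A gene is represented by its probe set with the highest mean of both arrays. It counts as above the floor when the higher of its 2 values reaches 6.19, the median over all genes, which 9196 genes did. All 10 members were above it. The pooled SD of differences between probe sets of the same gene was 0.13, and the robust SD over all genes above the floor was 0.14. Both describe spread within this pair of arrays and leave out the variation between cultures. A lower signal of a bulk culture cannot tell apart fewer expressing cells and less RNA per cell.

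Of the 10 genes, 9 had a lower signal with fluphenazine and TRIM5 a higher one, where 51.8% of all genes above the floor were lower. The median over the members was -0.29 on the log2 scale, or 1.23-fold lower, beside -0.01 for all genes. TRIM22, TRIM21, PARP9, PARP10 and TRIM14 were lower by at least 1.2-fold, a limit that 4.69% of genes passed downward and 4.84% upward. TRIM25 and PARP12 fell just short of that limit of 0.26, DTX3L lay closer to 0, and PARP14 was beside 0. TRIM22 alone was lower by at least 1.5-fold, as were 0.294% of genes, and TRIM21 came next at 1.48-fold. Since the choice of members used this contrast, nothing is read from these shares.

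**Figure D2:**
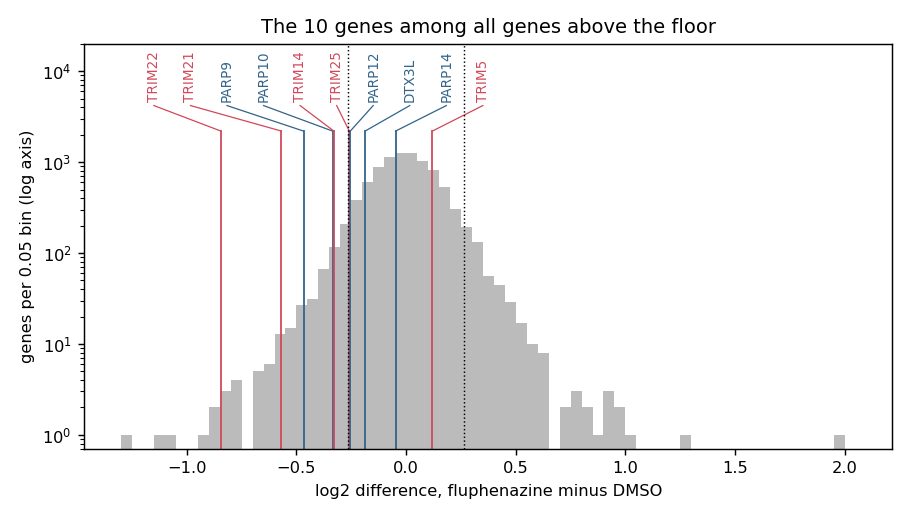
The grey bars count the genes above the floor by their log2 difference, fluphenazine minus DMSO (x axis), on a log axis, and the lines mark TRIM members (red) and PARP members with DTX3L (blue). Dotted lines mark 1.2-fold either way; 5 members lie below the lower one, and TRIM5 alone lies above 0.

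TRIM22, a ubiquitin ligase that restricts several viruses, had the largest difference. Its single probe set read 7.32 with DMSO and 6.48 with fluphenazine, a difference of -0.84 or 1.80-fold. It ranked 7 from the lowest of all 9196 genes. Among 1979 other genes within 0.5 of its mean signal, whose differences had a robust SD of 0.17, 3 were lower still. The fluphenazine value was close to the floor.

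TRIM21, a cytosolic antibody receptor and ubiquitin ligase that targets antibody-coated virus, was second among the members. Its single probe set read 6.95 with DMSO and 6.38 with fluphenazine, a difference of -0.57, ranking 33 from the lowest. The fluphenazine value was closer to the floor of 6.19 than that of TRIM22, and the DMSO value was the lowest of the members. Of 1898 genes of like signal, 12 were lower still, with a robust SD of 0.18. Of the 10 members, these 2 had the widest spread among genes of like signal.

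TRIM14, an adaptor of antiviral signalling at the mitochondrion, was read by 5 probe sets. The brightest went from 10.00 with DMSO to 9.67 with fluphenazine, a difference of -0.33, and the other one above the floor from 7.98 to 7.52, or -0.46. Under the floor, 1 probe set gave -0.44 (4.62 to 4.18) and the other 2 gave 0.06 each. Both bright probe sets were thus lower by at least 1.2-fold, and the dim ones disagreed.

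TRIM25, the ubiquitin ligase known for activating the RNA sensor RIG-I, read 9.95 with DMSO and 9.69 with fluphenazine on its bright probe set. The difference was -0.26, just short of the 1.2-fold limit. Its second probe set, under the floor, read 5.80 on both arrays. Among the genes whose windows are shown, TRIM25 alone held no ISRE match. Its difference was near that of PARP12, which has one.

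TRIM5, which binds the capsids of retroviruses, was the exception among the members. It read 8.63 with DMSO and 8.75 with fluphenazine, a difference of 0.12, which is within the spread of probe sets of one gene. The second probe set, under the floor, gave 0.27 (3.39 to 3.66). TRIM5 has an ISRE match like 6 other members, and the 5 TRIM members together spanned -0.84 to 0.12 with a median of -0.33.

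PARP9, which carries macrodomains that bind ADP-ribose, had the largest difference of the PARP members. Its brighter probe set read 9.81 with DMSO and 9.35 with fluphenazine, a difference of -0.47 or 1.38-fold, ranking 70 from the lowest. The second probe set, also well above the floor, read 8.66 and 7.79, a difference of -0.88. The mean of both was -0.67, so the size for PARP9 depends on the probe set, and the direction was shared. Of 1548 genes of like signal, 5 were lower than PARP9 on its brighter probe set.

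DTX3L, the ubiquitin ligase partner of PARP9, read 10.09 with DMSO and 9.90 with fluphenazine on its single probe set. The difference was -0.19, or 1.14-fold. It is smaller than either value of PARP9, although the genes share the ISRE letters shown above. Whether the 2 genes differ in response was not tested, since 1 array for each treatment allows no test.

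PARP14, a macrodomain-containing enzyme that adds single ADP-ribose units, lies near them on the same chromosome. It read 7.96 with DMSO and 7.91 with fluphenazine, a difference of -0.05, well within the spread of probe sets of one gene. Its second probe set, far under the floor, gave 0.18 (2.56 to 2.73). Of the genes above the floor, 38.8% were lower than PARP14.

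PARP12, which adds single ADP-ribose units and has zinc fingers that bind RNA, read 9.08 with DMSO and 8.83 with fluphenazine. The difference of -0.25, or 1.19-fold, fell just short of the limit. Its promoter match has the same letters as that of TRIM14, TTTCGGTTTC.

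PARP10, another enzyme that adds single ADP-ribose units, rested on 1 of 4 probe sets. The one above the floor read 7.86 with DMSO and 7.52 with fluphenazine, a difference of -0.34. Its identifier carries the suffix for probes that may bind other transcripts. The other 3, under the floor, gave 0.12 (5.63 to 5.74), -0.03 (4.47 to 4.44) and 0.24 (3.79 to 4.04). Their mean with the first was -0.00, and without probe sets of that suffix PARP10 was at 0.12, so its direction is not settled.

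Over probe sets, 11 of the 12 above the floor were lower with fluphenazine, beside 52.7% of all such probe sets, and 7 were lower by at least 1.2-fold, beside 5.38%. Their median was -0.33. Of the 9 under the floor 3 were lower and 6 higher, between -0.44 and 0.27, with a median of 0.06. The part of signal level in this split was not tested.

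**Figure D3:**
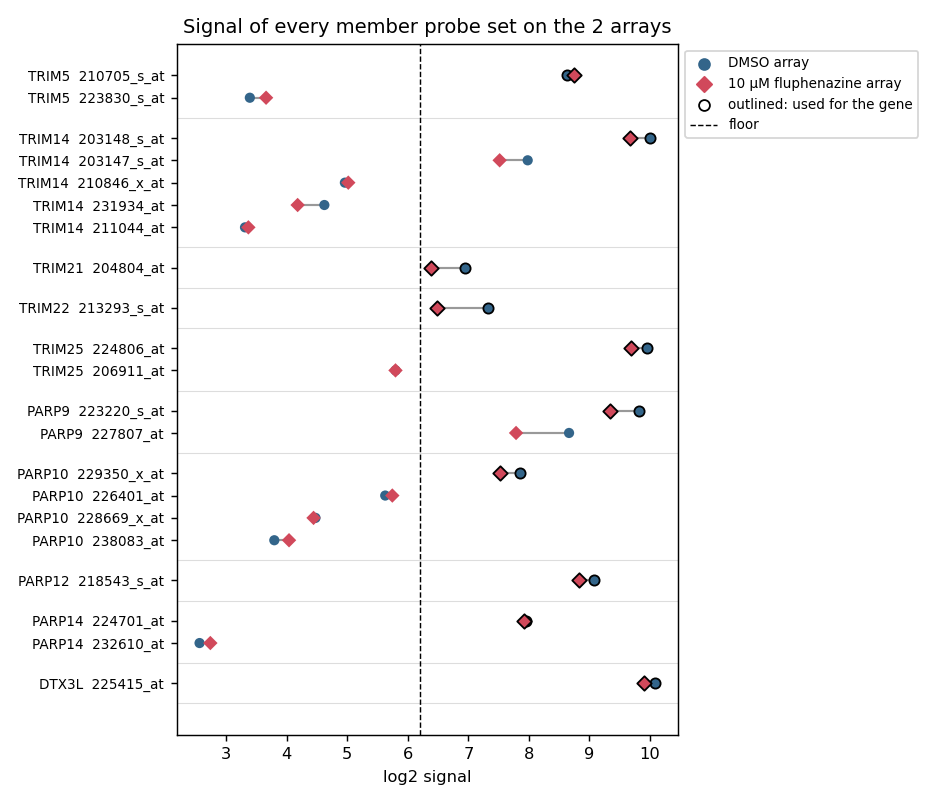
Each row is 1 of the 21 probe sets of the members, with its log2 signal (x axis) on the DMSO array (blue circle) and the fluphenazine array (red diamond); outlined symbols mark the probe set used for the gene and the dashed line the floor of 6.19. Above the floor 11 of 12 rows have the diamond to the left of the circle, and TRIM5 has it to the right.

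The other TRIM genes served as the rest of the family. Of 51 measured, 27 were above the floor, with 16 lower, 10 higher and 1 equal on both arrays. Their median was -0.01 and none was lower by at least 1.2-fold. Over all genes above the floor, 51.8% were lower and 4.69% lower by that much. At such a share few of 27 genes would pass, so nothing is read from a count of none. The lowest were TRIM32 at -0.26, TRIM38 at -0.24, TRIM69 at -0.21 and TRIM6 at -0.20, and the highest TRIM46 at 0.34, TRIM4 at 0.30, TRIM37 at 0.17 and TRIM2 at 0.15. TRIM6 and TRIM34 are neighbours of TRIM5 and TRIM22 on chromosome 11. TRIM6 read 8.07 with DMSO and 7.87 with fluphenazine. For TRIM34 the probe sets also name a second gene, so no value is given. Beside the TRIM6 difference of -0.20, TRIM5 was at 0.12 and TRIM22 at -0.84.

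The other PARP genes, 8 of 12 measured being above the floor, had a median of -0.05, and none reached 1.2-fold in either direction. That limit was passed by 4.69% of all genes above the floor downward and 4.84% upward. Nothing is read from its absence among 8 genes. TIPARP, an enzyme induced by the aryl hydrocarbon receptor, was at 0.25, the tankyrase TNKS2 at 0.16, the DNA repair enzyme PARP2 at -0.12, and ZC3HAV1, an antiviral protein that binds viral RNA and works with TRIM25, at -0.11. Readers and erasers of ADP-ribose had a median of -0.00 over 9 genes, with the repair scaffold XRCC1 lowest at -0.25. Of the other deltex ligases, 2 were above the floor, DTX4 at -0.36 and DTX3 at -0.15, with a median of -0.26. Partners of TRIM proteins had a median of -0.01 over 10 genes. They ranged from VCP, the ATPase used by TRIM21, at -0.18 to TAB3, a kinase adaptor, at 0.26.

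Along the interferon pathway, the ligands were all under the floor in both arrays, with 4 measured and values between 2.75 and 4.04. Receptors and kinases were above it in all 9 members, with a median of 0.03. None was lower by 1.2-fold and 1 was higher by at least that much, IFNGR1 at 0.28. The shares over all genes above the floor were 4.69% and 4.84%, so nothing is read from these counts over 9 genes. The kinase JAK1 was at 0.24. Of the transcription factors 5 were analysed here, IRF7 at -0.30 the lowest, IRF3 at -0.13, IRF2 at -0.12, and IRF1 at 0.04. IRF9, named outside the rule for named genes and after its value was seen because it is part of the complex that binds the ISRE, was also at 0.04. Feedback inhibitors had a median of 0.09 over 5 genes, from PTPN6 at -0.21 and USP18 at -0.18 to SOCS3 at 0.17. Among the RNA sensors and partners of TRIM25, RIGI was at -0.33, its ubiquitin ligase RNF135 at 0.07 and the kinase IKBKE at -0.22, with a list median of 0.00.

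ISG15, a ubiquitin-like protein, and the enzymes that attach or remove it were lower in 5 of 6 genes. Their median was -0.40, with 4 lower by at least 1.2-fold: ISG15 at -0.51, HERC6 at -0.43, HERC5 at -0.42 and UBE2L6 at -0.37. Other interferon-induced genes were lower in 25 of 26, with 19 lower by at least 1.2-fold and a median of -0.36. MX2 at -1.13 and OAS2 at -0.66 were the lowest. Of all genes above the floor, 51.8% were lower and 4.69% lower by at least 1.2-fold. The median was -0.29 over the members, -0.01 over the other TRIM genes and -0.05 over the other PARP genes. The direction of the members and of these lists was known when they were chosen. The order of these medians is thus a description, and no test compares them.

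**Figure D4:**
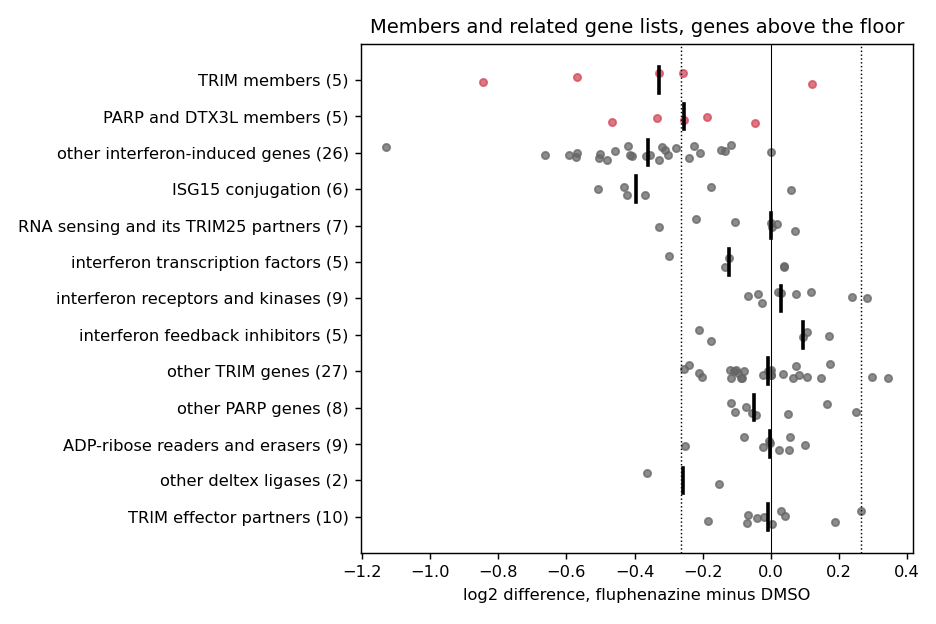
Each point is a gene above the floor, placed by its log2 difference, fluphenazine minus DMSO (x axis), with the members in red, the other lists in grey, black bars for medians, dotted lines at 1.2-fold and the number of genes in parentheses. The members, the other interferon-induced genes and the ISG15 genes have medians between -0.25 and -0.40. The other TRIM and PARP genes and the receptors have medians between -0.05 and 0.03. The 2 other deltex ligases have a median of -0.26, the interferon transcription factors -0.12 and the feedback inhibitors 0.09.

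Over all genes above the floor with a promoter window, 299 held ISRE letters and 7401 did not. Of the first, 10.4% were lower by at least 1.2-fold and 6.02% higher. Of the second the shares were 4.12% and 4.38%. Without the members, 28 of 292 genes with the letters were lower by that much, or 9.59%. Of these 28, 12 were in the lists of interferon-induced and ISG15 genes, whose direction was known when they were written. The other 16 were in neither list, so the share still holds genes picked with these data known. Over all genes above the floor, 4.69% were lower and 4.84% higher by at least 1.2-fold. The medians with and without the letters were both -0.01. For GAS letters the share lower was 4.72% with and 4.33% without. These are shares over genes on 1 pair of arrays, with no test.

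Across the series, the labelled cell type matched its markers in that all 6 epithelial markers were above the floor on these arrays. Their median difference was -0.04, and KRT8, a keratin that is no member of the interferon lists, was lower by more than 1.2-fold at -0.42. The others named by the rule were KRT18 at -0.13, KRT19 at -0.08 and CDH1 at 0.10. None of the 8 measured leukocyte markers was, with values from 2.63 to 5.02 and a mean of 3.84 on each array. PECAM1, an endothelial marker, read 8.76 with DMSO and differed by -0.27, whereas the other 2 measured endothelial markers were under the floor. Of 5 fibroblast markers COL1A1 alone was above it, with a difference of -0.00. Of 4 measured genes of the luminal androgen axis, KLK3 at -0.03 and TMPRSS2 at 0.12 were above it. The bacterial poly-A spike-ins, added before labelling, were lower on the fluphenazine array in all 24 probe sets, with a median difference of -0.22. Centring the arrays on them moved the median of all genes to 0.21. On that scale TRIM22 was at -0.63, TRIM21 at -0.35 and PARP9 at -0.25. TRIM14, TRIM25, PARP10 and PARP12 lay between -0.12 and -0.04, and TRIM5, PARP14 and DTX3L were above 0. Relative to all genes on that scale, the members' order and distances were the same. The part of the spike-in difference in these results was not tested.

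**Figure D5:**
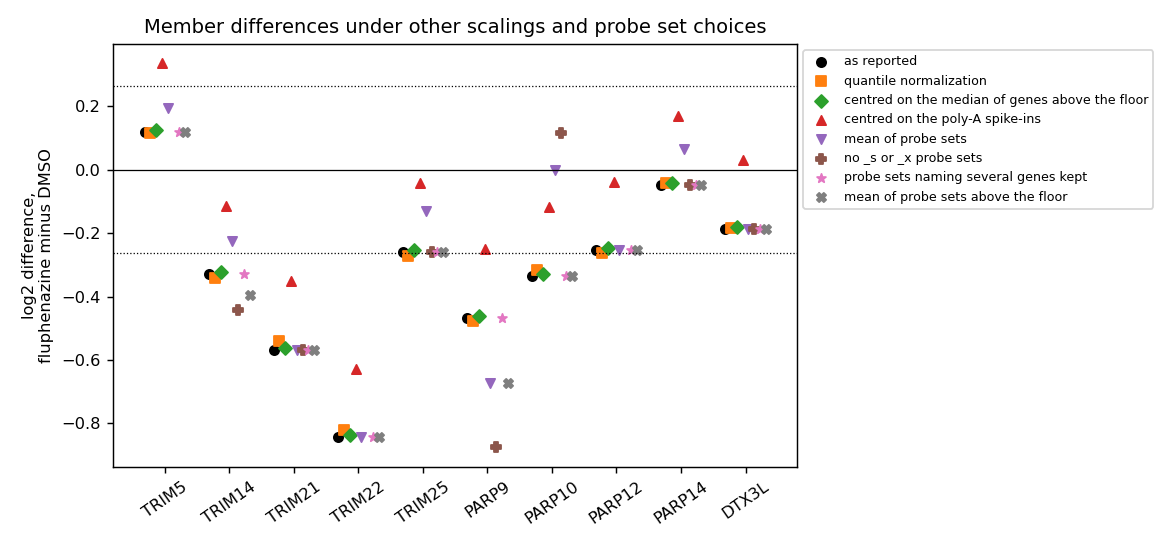
Each symbol is the log2 difference (y axis, fluphenazine minus DMSO) of a member under the reported choice or another scaling or choice of probe sets, with dotted lines at 1.2-fold. TRIM14, TRIM21, TRIM22, TRIM25, PARP9 and PARP12 stay below 0 and TRIM5 above it under every choice drawn that gave them a value, and PARP10, PARP14 and DTX3L cross it under at least 1.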

How the data were processed

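The submitters' processing notes name RMA, Transcriptome Analysis Console 3.1 and Affymetrix Expression Console 1.4 without saying what each did. In the deposited table there is 1 log2 signal for each of 47693 probe sets and each array, the scale being judged from its range of 1.60 to 14.28. No genome build was needed for the values. Per the labels' protocols, biotin-labelled total RNA was prepared with a whole-transcript kit. The probe set names are those of a 3' expression array, and the labels do not say how that kit was used with it, which may bear on how probe sets of one gene compare. The number of arrays, 1 for each treatment, limits the precision.

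Probe sets were named from the platform annotation, with symbols updated through gene identifiers. It named 1 gene for 37145 of them and several for 1668, which were left out. A further 8821 were unnamed here and 59 were controls. Each gene was read from its brightest probe set by the mean over both arrays. Members, lists and tests were chosen with earlier results of these data known. Named genes were all members, up to 4 of each list with the largest absolute difference, 4 other TRIM genes at each end, and TRIM or PARP neighbours of a member, with IRF9 added after its value was seen. Promoter windows came from RefSeq (GRCh38.p14). Other scalings, probe set choices and floors were tried. The subtraction and counting were tested on simulated data, the DMSO values with known shifts added and no noise. That checks the arithmetic only. Python 3.11.15, numpy 2.4.6, pandas 2.3.3 and limma 3.58.1 in R 4.3.3 were used.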

Additional observations from a re-analysis of the deposited data

How the results depend on the processing

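Under quantile normalization, centring on the median of genes above the floor, and keeping probe sets that name several genes, every count and median stayed within the limits used. These were 1.5 times for a count and the 0.13 SD of same-gene probe sets for a median. Under quantile normalization 6 members were lower by at least 1.2-fold, beside 4.27% of all genes. With probe sets that name several genes kept, 30 of 321 genes with ISRE letters were lower by that much, beside 4.48% of all genes. Centred on the poly-A spike-ins, 2 members were lower by at least 1.2-fold instead of 5, where the share of all genes above the floor lower by that much was 0.642% instead of 4.69%. The median over members was -0.078, that over TRIM members -0.11 and that over PARP members with DTX3L -0.038, and 11 genes with ISRE letters were lower by 1.2-fold instead of 31. On that scale 1.76% of the genes past 1.2-fold were lower, against 49.2% as reported. With all probe sets of a gene averaged, 3 members were lower by 1.2-fold, beside 5.02% of all genes, and 2 by 1.5-fold, and 1 of 28 other TRIM genes was lower by 1.2-fold. Without probe sets marked _s or _x, 6 members were above the floor, 2 of them lower by 1.2-fold, beside 5.87% of all genes. The median over PARP members with DTX3L was then -0.12, and PARP10 turned to 0.12. TRIM5, TRIM22 and PARP12 gave no value there. Without a floor, where more genes are counted and 8.33% of all were lower by 1.2-fold, 4 of 51 other TRIM genes and 63 of 567 genes with ISRE letters were lower by that much. With the floor at the 75th percentile, 6 members were analysed, 2 lower by 1.2-fold, beside 2.89% of all genes, and 0 by 1.5-fold. The mean of probe sets above the floor, chosen after seeing the data, put 2 members past 1.5-fold. The share of all genes lower by 1.5-fold was computed for the reported choice alone, at 0.294%. Nothing is thus read from the 1.5-fold counts under other choices. No paired analysis was possible because each group has 1 array.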

Other observations

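Interferon-induced genes outside the TRIM and PARP families, a list whose direction was known when it was written, were split by the letters in their promoter windows, with no test of the difference. Of 21 such genes above the floor with a window, 14 held the letters, with a median log2 difference of -0.32 and 10 lower by at least 1.2-fold, beside 4.69% of all genes above the floor. The other 7 had a median of -0.37, with 6 lower by that much. Among the other TRIM genes, 5 of 20 held the letters. Their median was 0.06 and none was lower by 1.2-fold, while the 15 without the letters had a median of -0.09. Of the 28 genes outside the members that held the letters and were lower by at least 1.2-fold, 12 were in the lists of interferon-induced and ISG15 genes and 16 in neither.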
